A study of Xenopus tropicalis with 36 samples.

Results

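Normal tailbud development in wild-type siblings of a *Xenopus tropicalis* *t*/*t2* mutant line was measured as the difference between stage 34 and stage 26 in 6 of the 36 RNA-seq libraries of the series. The 6 libraries are all those whose labels name the wild-type genotype of the KO experiment, with crosses 1, 2 and 9 sampled at both stages. Their parents were out-bred Nigerian frogs heterozygous for 2 deletions, written te1.2D and t2e3.7D, in *t* and *t2*, the paralogs of the T-box gene *brachyury*. Every embryo of the experiment was therefore a sibling of heterozygotes and mutants. Wild-type embryos carried neither deletion, received no injection and were grown at 25 °C in 5% MMR like all others. Embryos were homogenized and genotyped singly, and the RNA of 5 to 10 siblings was pooled into each library, so that a library is a pool from 1 cross and the 3 crosses are the replicates. Both stages carry the same mid-tailbud name in the labels, and they are given here by number. The remaining libraries are *t*/*t2* het and *t*/*t2* KO siblings of the same crosses, and a separate KD experiment with uninjected, cMO-injected and *t*/*t2* MO-injected embryos of 3 other clutches. Poly(A) RNA was sequenced, and the 6 libraries held 30225504 to 52401214 gene fragments each. All 16 markers chosen to check for muscle, heart, blood, neurons, eye, notochord, pronephros and epidermis were present in all 6 libraries, the lowest being *myod1* with 64.0 normalized counts.

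The tailbud stages are when the vertebrate body plan turns into working organs. Progenitors in the tailbud, which express *brachyury* genes, Wnt and FGF ligands and *tbx6*, keep adding notochord and somites at the posterior end, while further forward the differentiated cells of blood, heart, liver, kidney, eye and nervous system switch on the genes of their trade. In *Xenopus* this is also the period of hatching, when the mucus-secreting cement gland and the larval epidermis with its ciliated cells are still in use. Because whole embryos were sequenced, more cells of a type and more RNA per cell cannot be told apart in any value below.

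Counts are given as normalized counts, that is, scaled to a common library size, and in the order of crosses 1, 2 and 9. Changes are log2 of stage 34 over stage 26 with the standard error of the fit, which paired the libraries by cross. A gene is said to rise or fall only where edgeR's quasi-likelihood test gave a Benjamini-Hochberg adjusted p of at most 0.1 over all genes, the change was at least 1.5-fold and the mean normalized count exceeded 7. Other members are given by value. Some genes named below lie across a gene model of the opposite strand. Among them are *fabp2*, *krt5.7*, *krt8*, *tll2*, *hbz*, *hba1*, *hba3*, *sptb*, *tie1*, *tnnc1*, *f2* and *c3*. They also include *lfng*, *grin1*, *sox3*, *opn1sw*, *slc5a2*, *slc4a4*, *vil1*, *tcn2*, *cdt1*, *ccne1* and *avp*. As the libraries do not keep strand, fragments of overlapping genes cannot be separated. Of the 17987 genes that passed the count filter, 3618 (20.1%) differed between the stages, 2441 of them (13.6%) rising and 1177 (6.54%) falling. The counts of called members in each list below are to be read beside these shares. The count filter averaged libraries of both stages. A gene nearly absent at stage 26 could therefore pass through its stage 34 counts alone, and could then only rise. The reverse holds for genes nearly absent at stage 34. Lists and members were also chosen with earlier results of these data known, so the list counts are descriptive. Rises were also larger. At least 4-fold were 464 rises (2.58%) but only 48 falls (0.267%), and the median fold among called genes was 2.18 for rises and 1.79 for falls, whereas the median log2 change of all 17987 genes was -0.013. The direction was shared by all 3 crosses in 3498 of the 3618 genes, beside 56.7% of all genes past the filter, and the libraries of the stages did not overlap in 2155 of the rising and 950 of the falling genes, beside 35.5% of all. The called genes were chosen on the same libraries. Without cross 9 the genes falling at least 4-fold numbered 117.

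**Figure D1:**
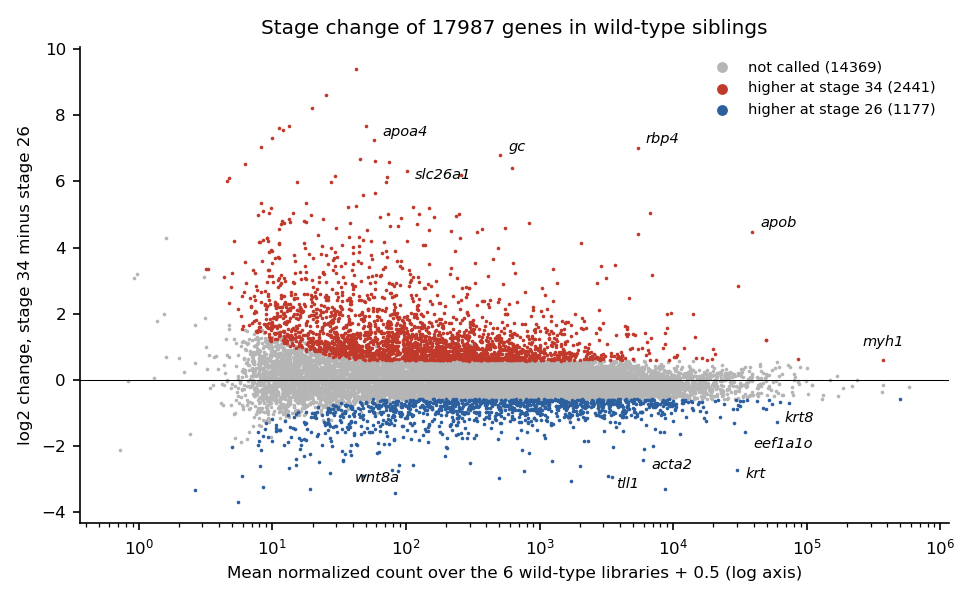
Stage change of every gene past the count filter in wild-type siblings, as log2 of stage 34 over stage 26 (vertical) against the mean normalized count of the 6 libraries plus 0.5 (horizontal, log axis). Points are genes, coloured where they were called higher at stage 34 (2441) or at stage 26 (1177); the largest changes are rises, and among the most abundant genes *myh1* and *apob* rose while *krt8* and *eef1a1o* fell.

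Among called genes that carry a symbol, average 50 or more normalized counts and rose in every cross, the 12 with the largest change were *apoa4*, *rbp4*, *gc*, *slc26a1*, *rbp2*, *tmem174*, *slc5a5*, *ttr*, *slc12a3*, *pde6c*, *fabp2* and *fabp1*. *rbp4* (Xetro.G00606, scaffold 7, 30495227 to 30504102, minus strand, v7.1), which carries retinol in the blood, had 35.3, 199 and 46.9 at stage 26 and 12687, 11661 and 7804 at stage 34. Every stage 34 library was far above every stage 26 library (log2 change 7.02 ± 0.43, edgeR adjusted p = 1.14e-12). The vitamin D binding protein gene *gc* had 7.49, 17.0 and 1.34 at stage 26 and 930.1, 934 and 1138 at stage 34 (log2 change 6.79 ± 0.39, edgeR adjusted p = 3.06e-13). *apoa4*, a lipoprotein component, was at 0, 1.89 and 0 at stage 26 and at 73.4, 157 and 111 at stage 34, so that its fitted change of 7.25 depends on the prior count and is no measured fold. The sulfate transporter gene *slc26a1* changed by 6.31 from 2.14, 4.72 and 0 at stage 26, so that this size too depends on the prior count. The intestinal retinol binder *rbp2* changed by 6.20 and the fatty acid binders *fabp2* and *fabp1* by 5.00 and 4.75. *tmem174*, a transmembrane protein gene, had 1.07, 3.78 and 1.34 at stage 26 and 137, 220.2 and 58.3 at stage 34. In absolute counts the 5 largest gains were those of the myosin heavy chain gene *myh1*, the apolipoprotein genes *apob* and *apoa1* and the creatine kinase genes *ckm* and *ckb*. For *myh1* the call was lost without cross 1 (change 0.38) and without cross 2 (0.58). *ckb* rose from 29476 ± 2442 (SD, n = 3) to 68669 ± 16725 normalized counts.

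The 12 genes with the largest falls by the same ranking were *tll1*, *krt*, *wnt8a*, *admp2*, *crisp1*, *acta2*, *abcb9*, *ctbs*, *ventx1.2*, *upp1*, *tll2* and *avpr1a*. The gene annotated as *krt* (Xetro.J00867, scaffold 10), a keratin, had 61246, 29985 and 62808 at stage 26 and 5697, 4006 and 15668 at stage 34, and the stages did not overlap (log2 change -2.71 ± 0.22, edgeR adjusted p = 1.60e-10). *acta2*, an actin of smooth muscle in adults, had 11462, 6700.1 and 12080 at stage 26 and 1276, 1814 and 2494 at stage 34 (log2 change -2.43 ± 0.20, edgeR adjusted p = 2.76e-10). The gene annotated as *tll1* (Xetro.D00194), by its name a tolloid-like metalloprotease gene, had 4074, 6424 and 5790 at stage 26 and 647, 101 and 2402 at stage 34. Its level at stage 34 ranged over more than an order of magnitude among the crosses, with cross 9 highest, yet remained below all stage 26 libraries (log2 change -2.90 ± 0.59, edgeR adjusted p = 4.37e-04). The BMP ligand gene *admp2* changed by -2.56, the cysteine-rich secretory protein gene *crisp1* by -2.46 and the BMP-responsive homeobox gene *ventx1.2* by -2.19. *abcb9*, *ctbs* and the vasopressin receptor gene *avpr1a* changed by -2.29, -2.20 and -2.04. In *upp1* and *tll2*, with changes of -2.12 and -2.06, the stages overlapped, cross 9 being at 787 and 222 normalized counts at stage 34. Among the largest losses in counts were those of *krt5.7*, *krt8*, *krt* and *eef1a1o*, a gene of the oocyte form of elongation factor 1 alpha. *eef1a1o* had 47499, 46029 and 59602 at stage 26 and 13654, 12148 and 28588 at stage 34 (log2 change -1.57 ± 0.20, edgeR adjusted p = 1.06e-06). *krt5.7* had 663480, 475482 and 665031 at stage 26 and 397383, 370358 and 416912 at stage 34 with a change of -0.59, which was -0.51 without cross 1 and -0.54 without cross 9 and then missed the fold threshold.

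In the list for liver and plasma proteins 21 of 33 measured members rose and none fell, against 13.6% and 6.54% of all genes, 13 of them at least 4-fold, and the median change was 1.03. Without cross 1, and without cross 9, 1 member fell. All 33 measured members together took 0.260%, 0.331% and 0.331% of all counts at stage 26 and 0.906%, 0.999% and 0.780% at stage 34. Their summed normalized counts were 103710, 125949 and 134137 at stage 26 and 335290, 359834 and 287336 at stage 34. These sums include *c3*, which was not called and held most of them at stage 26 (values below). *ttr*, which codes for the thyroxine and retinol carrier transthyretin, had 382, 552 and 219.8 at stage 26 and 14839, 18718 and 5758 at stage 34, a rise in every cross that was smallest in absolute terms in cross 9 (log2 change 5.05 ± 0.29, edgeR adjusted p = 2.76e-13). *apob*, which codes for the structural protein of large lipoproteins, had 2565, 6320.4 and 1994 at stage 26 and 91686, 91510 and 39369 at stage 34, and cross 9 was again lowest at stage 34 (log2 change 4.48 ± 0.28, edgeR adjusted p = 1.51e-12). The fibrinogen chain genes *fgg*, *fga* and *fgb* changed by 4.13, 3.43 and 2.47, and those of further clotting factors followed, with 2.30 for *f9*, 1.36 for *f10* and 1.03 for prothrombin, *f2*. *serpina1*, the antitrypsin gene, rose by 3.18, *apoa1* by 2.84, the plasminogen gene *plg* by 2.20 and the protease inhibitor gene *a2m* by 1.55. The clotting factor V gene *f5* rose by 0.88, but its change was 0.56 without cross 1 (edgeR adjusted p = 0.147) and 0.76 without cross 2 (edgeR adjusted p = 0.15). The complement gene *c3* had 72896, 81287 and 106000 at stage 26 and 93040, 94515 and 152643 at stage 34, with overlapping stages and no call (log2 change 0.37 ± 0.13, edgeR adjusted p = 0.0374). Of the liver transcription factors, *hnf4a* had a change of -0.53, below the fold threshold, and *hhex*, *cebpa* and *onecut1* had changes of -0.31, 0.074 and -0.032, none of them called. *prox1*, a regulator shared with the lens list, rose by 0.79.

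In the red blood cell list 7 of 20 measured genes (35%) rose and 3 (15%) fell, with a median change of 0.41. The globin genes *hbz*, *hbd*, *hba2*, *hbe1* and *hba3* rose by 1.67, 1.42, 1.40, 1.27 and 0.78, whereas *hba1* and *hbg1*, with changes of 0.66 and 0.40, were not called. For *hbd* the libraries had 4470.3, 6272 and 3422 at stage 26 and 12063, 17381 and 8742 at stage 34, with cross 2 highest and cross 9 lowest at both stages (log2 change 1.42 ± 0.17, edgeR adjusted p = 2.77e-07). *hba-l5* rose by 1.04, but without cross 2 its change was 0.56 (edgeR adjusted p = 0.231). *sptb*, the erythrocyte spectrin gene, rose by 0.84. The haem synthesis gene *alas2* (0.39), the anion exchanger gene *slc4a1* (0.42) and the erythroid regulator gene *gata1* (0.51) had positive changes that were not called. Of these, *alas2* and *slc4a1* missed only the fold threshold (edgeR adjusted p = 0.0396 and 0.0430), whereas *gata1* had an edgeR adjusted p of 0.126. *tal1*, a regulator of blood and endothelial progenitors, had 2876, 2528 and 2583 at stage 26 and 1210.1, 1319 and 1714 at stage 34 (log2 change -0.92 ± 0.13, edgeR adjusted p = 3.48e-06), and its partner *lmo2* changed by -0.92. *cpox*, another haem synthesis gene, changed by -0.59, and by -0.57 without cross 1 and -0.48 without cross 9, both below the fold threshold. In the endothelial list 9 of 22 rose and 2 fell, with a median of 0.51. *lyve1*, a hyaluronan receptor of lymphatic vessels, had 17.1, 17.9 and 10.7 at stage 26 and 259, 356 and 164 at stage 34 (log2 change 4.07 ± 0.26, edgeR adjusted p = 1.75e-12). *clec14a*, *pecam1* and *vwf* rose by 3.60, 2.16 and 1.70. *clec14a* had only 4.28, 0.944 and 1.34 at stage 26, so that its fitted size depends on the prior count. The junction gene *cdh5* and the receptor genes *tie1*, *flt4* and *flt1* rose by 1.28, 0.96, 0.74 and 0.71, the last with a change of 0.58 without cross 1 that missed the fold threshold. Further receptor genes of the list were not called and went both ways. Their changes were -0.50 for *aplnr*, -0.32 for *kdr*, -0.32 for *robo4* and 0.50 for *tek*. *aplnr* averaged 4019 normalized counts at stage 26 and 2846 at stage 34. The ETS factor gene *etv2*, which specifies these cells, had 1194, 1332 and 1226 at stage 26 and 376, 389 and 746 at stage 34. All 3 crosses were lower at stage 34, and cross 9 least so (log2 change -1.37 ± 0.19, edgeR adjusted p = 2.82e-06). Its relatives *fli1* and *erg* had changes of 0.40 and 0.51 (edgeR adjusted p = 0.0285 and 0.0106) and missed only the fold threshold. In the myeloid list 7 of 18 fell, 1 rose and 10 were not called (median -0.47), and without cross 9 the risers numbered 3. The NADPH oxidase genes *cybb* and *ncf1* fell by 0.95 and 0.88 on the log2 scale, and the myeloid peroxidase gene *mpo* by 0.73. For *ncf1* the change was -0.67 without cross 2 (edgeR adjusted p = 0.118). *spib* changed by -0.91, and by -0.39 without cross 2 (edgeR adjusted p = 0.267). The riser was *mrc1*, a mannose receptor gene that endothelial cells also express, with a change of 1.57. Changes of the 10 members not called went both ways, from -1.07 for *itgam* to 0.39 for *mmp7*. Among them, *ncf4*, another oxidase subunit gene, had -0.42, and *csf1r* and *cebpa* had 0.017 and 0.074.

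In the heart list 5 of 22 measured genes (22.7%) rose, 5 (22.7%) fell and 12 were not called, with a median change of -0.036. *tnnt2*, cardiac troponin T, had 48.1, 73.7 and 28.1 at stage 26 and 396, 648 and 242 at stage 34 (log2 change 3.09 ± 0.34, edgeR adjusted p = 7.07e-08). *myh6*, the atrial myosin gene, had 1344, 1591 and 1092 at stage 26 and 4037, 6126 and 2476 at stage 34, rising in every cross, most in cross 2 and least in cross 9 (log2 change 1.57 ± 0.25, edgeR adjusted p = 1.87e-05). *nppb*, which codes for a natriuretic peptide, rose by 4.08 from 0 to 7.56 normalized counts at stage 26, and *myl7* and *tnni3* rose by 1.55 and 0.93. The fallers were *nkx2-5* (-0.88), *gata5* (-0.74), *hand1* (-0.70) and *gata6* (-0.69), regulators of early heart mesoderm of which the last 3 are used elsewhere too, and the myosin light chain gene *myl4* (-0.66). For *myl4* the change was -0.44 without cross 9 and missed the fold threshold. *nkx2-5* had 717, 896 and 784 at stage 26 and 413, 418 and 470.1 at stage 34 (log2 change -0.88 ± 0.14, edgeR adjusted p = 2.68e-05). For *gata6* the change was -0.54 without cross 1, below the fold threshold, and -0.53 without cross 2 (edgeR adjusted p = 0.102). *tbx5* was at 126, 166 and 134 at stage 26 and 114, 166 and 148 at stage 34, with overlapping stages and a change of -0.0014 that was not called. The changes of *gata4* (-0.34) and *hand2* (0.51) missed only the fold threshold, and that of *isl1* (-0.21) was not called either. Nor were those of the contractile genes *myh7* (-0.50) and *tnnc1* (-0.27).

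In the skeletal muscle list 9 of 36 genes (25%) rose and 2 (5.56%) fell, with a median change of 0.046, and 4 fell without cross 1. *actc1*, the main sarcomeric actin of *Xenopus* embryos, had 149390, 153946 and 182910 at stage 26 and 171227, 174506 and 182624 at stage 34, with overlapping stages (log2 change 0.12 ± 0.11, edgeR adjusted p = 0.511). *ckm*, muscle creatine kinase, rose in every cross, with 28935, 33834 and 27959 at stage 26 and 82827, 71978 and 53586 at stage 34 (log2 change 1.19 ± 0.14, edgeR adjusted p = 2.29e-07). *myh1* had 260037, 296174 and 325646 at stage 26 and 529404, 460263 and 351944 at stage 34. Its rise was larger in crosses 1 and 2 than in cross 9 (log2 change 0.60 ± 0.13, edgeR adjusted p = 0.00119), and the change was 0.38 without cross 1 and 0.58 without cross 2, both below the fold threshold. Other abundant myosin heavy chain genes were lower at stage 34 without overlap and missed only the fold threshold. *myh4* averaged 153935 at stage 26 and 104619 at stage 34 (log2 change -0.56), and *myh2* 39768 and 27284 (-0.53). The less abundant *myh3* (0.58) and *myh8* (-0.30) were not called. The largest rises in the list were those of *mybpc2* (2.56), *actn2* (1.86), *casq1* (1.73), the calcium store protein gene, and *acta1* (1.72). Of these, *mybpc2*, *actn2* and *acta1* were low, averaging 14.6, 36.7 and 42.5 normalized counts at stage 26 and 85.8, 139 and 129 at stage 34. *pgam2*, a muscle enzyme of glycolysis, and *smyd1*, which is needed for myofibril assembly, fell by 1.24 and 1.05. Among the regulators of myogenesis 4 of 14 fell and none rose (median -0.21). *myod1* had 459, 383 and 450.3 at stage 26 and 64.0, 114 and 266 at stage 34, with cross 9 highest at stage 34 (log2 change -1.62 ± 0.32, edgeR adjusted p = 3.61e-04). *myf6* and *mef2d* fell by 0.80 and 0.68. *pax3*, a gene of muscle and neural progenitors, changed by -0.65, but by -0.56 without cross 2 and -0.53 without cross 9, both below the fold threshold. *myf5* and *myog* had changes of -0.35 and 0.33 that were not called.

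**Figure D2:**
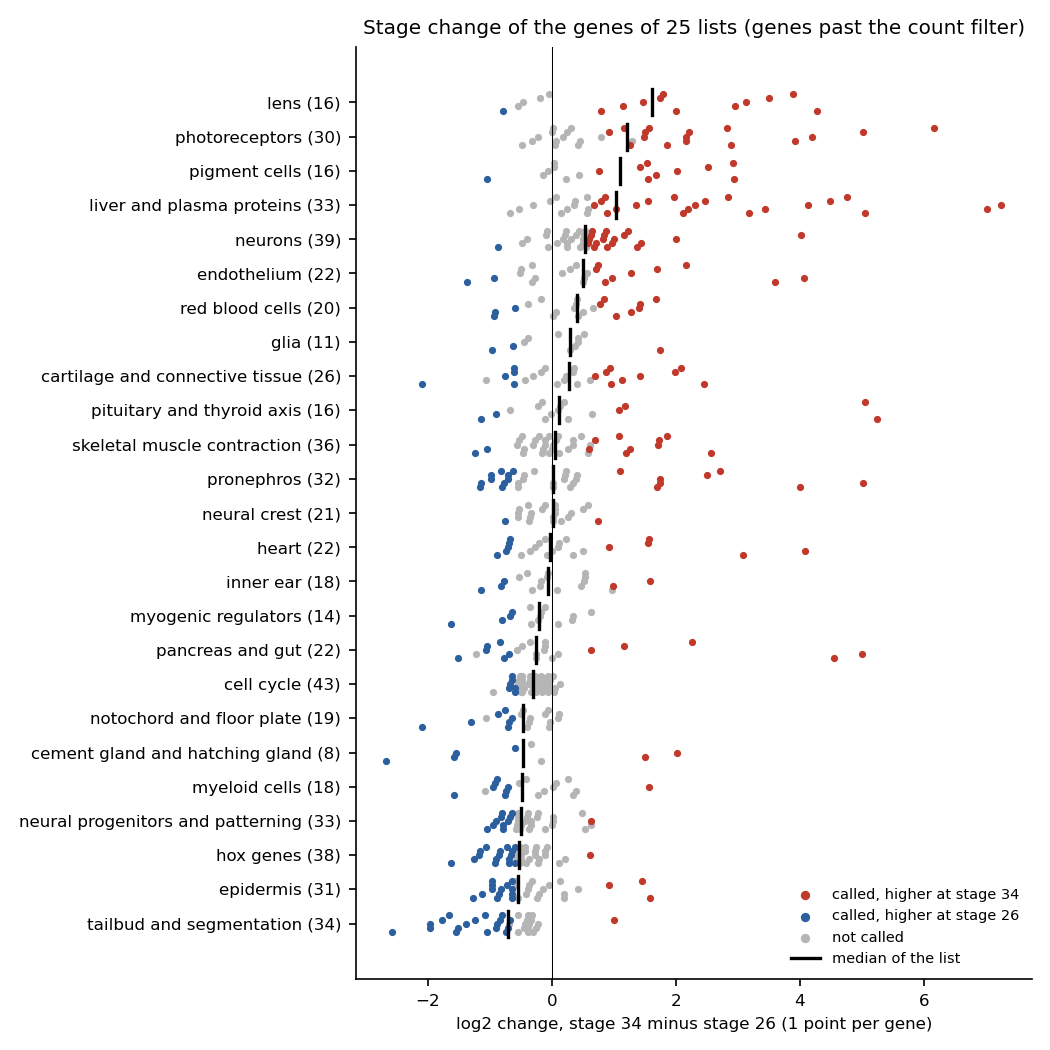
Stage change of each measured gene of the 25 lists (1 point per gene, log2 of stage 34 over stage 26), with the number of genes in brackets and the list median as a black bar. Red and blue points are called genes, grey points are not called; medians run from -0.70 in the tailbud and segmentation list to 1.61 in the lens list, and several lists hold genes that moved in both directions.

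Genes of the tailbud and of segmentation formed the list with the lowest median, -0.70, with 18 of 34 falling and 1, *tbx18*, rising. The *brachyury* paralogs differed in their calls. *t* (Xetro.E00956) had 756, 881 and 649 at stage 26 and 386, 409.7 and 433 at stage 34, without overlap between the stages (log2 change -0.89 ± 0.15, edgeR adjusted p = 7.57e-05). *t2* (Xetro.E00957) had 816, 992 and 905 at stage 26 and 670.1, 636 and 857 at stage 34, with overlapping stages and a change that was not called (log2 change -0.34 ± 0.16, edgeR adjusted p = 0.12). Whether the changes of these paralogs differ from each other was not tested. *wnt8a*, a posterior Wnt ligand gene, had 134, 213 and 218 at stage 26 and 10.5, 14.2 and 82.2 at stage 34. Crosses 1 and 2 lost nearly all of it and cross 9 kept more (log2 change -2.58 ± 0.37, edgeR adjusted p = 4.46e-06). *tbx6*, the T-box gene of presomitic mesoderm, had 793, 758 and 1589.6 at stage 26 and 212, 197 and 531 at stage 34 (log2 change -1.76 ± 0.34, edgeR adjusted p = 2.54e-04), and *msgn1*, its companion there, fell by 1.24. The segmentation genes *mespa*, *mespb* and *hes7.2* fell by 1.55, 1.96 and 1.66. *mesp2* fell by 1.96 from at most 28.9 normalized counts, but its change was -1.54 without cross 1 (edgeR adjusted p = 0.179) and -1.83 without cross 2 (edgeR adjusted p = 0.113). The caudal genes *cdx1*, *cdx4* and *cdx2*, which pattern the posterior body, fell by 1.51, 1.38 and 1.04. *fgf3* and *fgf8*, FGF ligand genes of the tailbud, fell by 0.90 and 0.67, and the Wnt target *sp5* by 0.83. Of the Notch pathway genes, *dll1*, *dlc*, *lfng* and *notch1* had changes between -0.40 and -0.22 and none was called. *tbx18*, a T-box gene of somites and other mesoderm, rose by 1.00.

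Of 38 measured *hox* genes, which give cells their position along the body axis, 16 fell and 1 rose, with a median of -0.52. Without cross 1 the number falling was 10. The largest falls were those of *hoxb1* (-1.63), *hoxd1* (-1.25), *hoxb9* (-1.17) and *hoxb8* (-1.15). *hoxb1* had 275, 436 and 394 at stage 26 and 76.6, 99.7 and 189.7 at stage 34, with cross 9 highest at stage 34 (log2 change -1.63 ± 0.24, edgeR adjusted p = 6.72e-06). The riser, *hoxa4*, had 574, 502 and 474 at stage 26 and 815, 799.6 and 761 at stage 34 with a change of 0.61, which was 0.58 without cross 2 and then missed the fold threshold. The group 13 genes *hoxa13*, *hoxc13* and *hoxd13* had changes of 0.12, -0.53 and -0.28, and none was called. In the notochord and floor plate list 7 of 19 fell and none rose (median -0.46). The BMP antagonist gene *chrd* had 586, 769 and 811 at stage 26 and 265, 218 and 403 at stage 34 (log2 change -1.30 ± 0.16, edgeR adjusted p = 5.30e-07), and the homeobox gene *not* fell by 0.87. *foxa4* fell by 0.70 and *foxa1* by 0.69, the latter with a change of -0.53 without cross 2, below the fold threshold. *col9a1* changed by -2.09 from at most 45.6 normalized counts, and by -1.53 without cross 9 (edgeR adjusted p = 0.147). *shh*, the ligand gene of notochord and floor plate, had 970.2, 1139 and 894 at stage 26 and 734, 1074 and 1124 at stage 34, with overlapping stages and no call (log2 change -0.064 ± 0.16, edgeR adjusted p = 0.856).

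Of 39 neuronal genes 18 rose, 1 fell and 20 were not called, with a median of 0.54. Without cross 2 the fallers numbered 2. Among the largest rises were those of *gad2* (2.00), a GABA synthesis gene, *nefh* (1.44), a neurofilament gene, and *cplx1* (1.38), a gene of synaptic vesicle release. *syp*, the synaptophysin gene, had 675, 959 and 686 at stage 26 and 1625, 1886 and 1622 at stage 34, with no overlap (log2 change 1.16 ± 0.12, edgeR adjusted p = 3.90e-08). The glutamate receptor genes *gria2* and *grin1* rose by 1.22 and 1.01, and *chat*, which makes acetylcholine, by 0.83. The pan-neuronal genes *elavl3*, *tubb2b* and *tubb3* had changes of -0.061, 0.23 and 0.24 and were not called. *th*, the rate-limiting enzyme of catecholamine synthesis, was the gene that fell, with 149, 107 and 159 at stage 26 and 59.8, 74.5 and 87.8 at stage 34 (log2 change -0.87 ± 0.23, edgeR adjusted p = 0.0069). Among 33 progenitor and patterning genes 10 fell, 1 rose and 22 were not called, with a median of -0.50. The ventral and spinal cord patterning genes *dbx1*, *nkx6-2* and *pax2* fell by 0.94, 0.90 and 0.81. *olig4* changed by -1.04, and by -0.68 without cross 2 (edgeR adjusted p = 0.164). *sox3*, a gene of neural progenitors, had 2478, 2792 and 2998 at stage 26 and 1614, 1231 and 2034 at stage 34 (log2 change -0.79 ± 0.13, edgeR adjusted p = 5.99e-05), and *sox2* had a change of -0.54, just below the fold threshold. The riser was the differentiation gene *neurod1* (0.64), whose change without cross 2 was 0.40 (edgeR adjusted p = 0.149). The myelin gene *mbp* had at most 186 normalized counts and was not called, whereas the radial glia gene *fabp7* rose by 1.75 and the glial transporter gene *slc1a3* and the myelin protein gene *pmp22*, which is also expressed outside glia, fell by 0.63 and 0.96. Without cross 1 the change of *slc1a3* was -0.54, below the fold threshold, and 1 gene of the glial list fell.

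The eye lists had the highest medians. Of 16 measured lens genes 11 rose and 1 fell (median 1.61), and of 30 photoreceptor genes 16 rose and none fell (median 1.21). Without cross 9 the fallers numbered 2 and 1. The lens list held 25 genes and the photoreceptor list 37 before the count filter. Members nearly absent at stage 26, such as *gngt2*, passed the filter only through stage 34. They could not be called falling, which bears on these counts and medians. *mip*, the lens fibre water channel gene, had 8.56, 40.6 and 24.1 at stage 26 and 474, 722 and 244 at stage 34 (log2 change 4.28 ± 0.34, edgeR adjusted p = 1.35e-10). The crystallin genes *crygn*, *crygs*, *cryba4*, *crybb1*, *cryba2* and *cryba1* rose by 3.89, 3.50, 2.01, 1.79, 1.74 and 1.15. Of the lens regulators, *prox1* rose by 0.79, *pitx3* fell by 0.78, and *foxe3* and *maf*, with changes of -0.18 and -0.041, were not called. Among photoreceptor genes, *gngt2*, a cone transducin subunit gene, was at 1.07, 0.944 and 0 at stage 26 and at 44.0, 87.6 and 40.8 at stage 34. *pde6c*, the cone phosphodiesterase gene, had 2.14, 7.56 and 2.68 at stage 26 and 122, 194 and 109 at stage 34 (log2 change 5.01 ± 0.34, edgeR adjusted p = 6.65e-12). The cone opsin gene *opn1lw* had 10.7, 15.1 and 2.68 at stage 26 and 95.4, 317 and 167 at stage 34, lowest at stage 34 in cross 1 (log2 change 4.19 ± 0.38, edgeR adjusted p = 2.20e-09). The rod opsin gene *rho* had 10.7, 9.44 and 6.70 at stage 26 and 15.7, 86.5 and 34.4 at stage 34 (log2 change 2.22 ± 0.50, edgeR adjusted p = 0.00144). The photoreceptor regulator *crx* rose by 1.86, and *nrl* had a change of -0.22 that was not called. The gene annotated as *opn1sw* had 6337, 6382 and 6535 at stage 26 and 6164, 5776 and 7743 at stage 34 and was not called (log2 change 0.022 ± 0.11, edgeR adjusted p = 0.965). The eye field gene *rax* fell by 0.67, and the change of *pax6*, -0.55, missed the fold threshold.

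In the pigment list 9 of 16 genes rose and 1 fell (median 1.09). *tyrp1* and *tyr*, enzymes of that pathway, rose by 2.94 and 2.92, and *dct*, another, by 1.55. The libraries had 218, 415 and 298 at stage 26 and 2108, 3410 and 1594 at stage 34 for *tyr*, without overlap and with the highest value in cross 2 (log2 change 2.92 ± 0.21, edgeR adjusted p = 2.24e-11). The melanosome genes *rab38*, *mlph* and *pmel* rose by 2.52, 2.02 and 1.43. *mitf* and *kit*, a regulator and a receptor of melanocytes, had changes of -0.058 and 0.037 and were not called, and *rab27a* fell by 1.04. The neural crest list had a median of 0.014 with 1 of 21 rising and 1 falling. These counts were 2 and 2 without cross 1, and 2 and 4 without cross 9, while none rose without cross 2 or at an adjusted p of at most 0.01. *foxd3*, an early crest factor, had 903, 815 and 829.6 at stage 26 and 462, 529 and 522 at stage 34 (log2 change -0.75 ± 0.15, edgeR adjusted p = 3.92e-04), and the skeletal crest gene *barx1* rose by 0.74, although its change was 0.47 without cross 2 (edgeR adjusted p = 0.479).

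**Figure D3:**
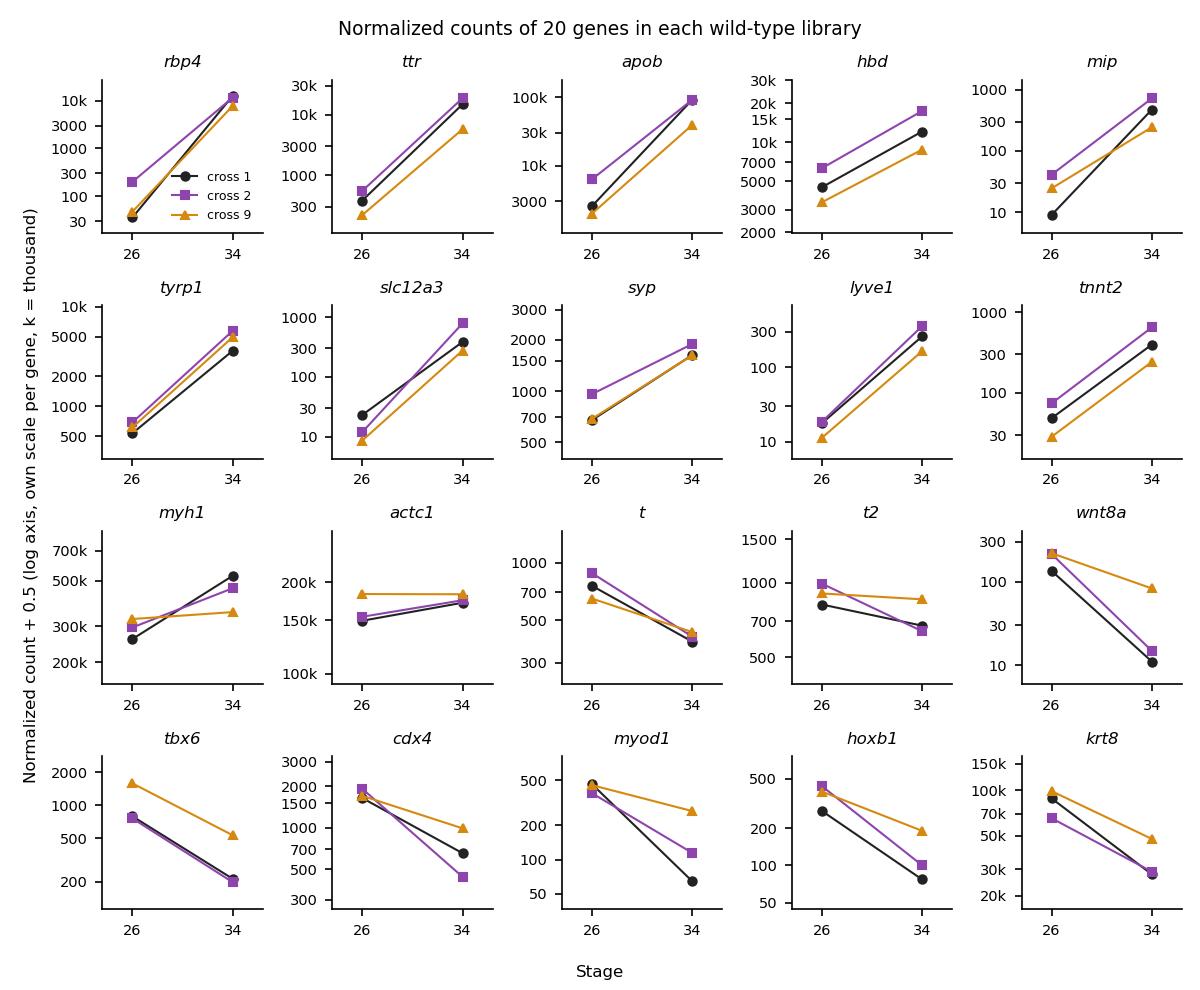
Normalized counts (plus 0.5, log axis with its own scale in each panel) of 20 genes at stages 26 and 34, with lines joining the 2 libraries of a cross (circles cross 1, squares cross 2, triangles cross 9). Genes of liver, blood, lens, pigment, kidney, neurons, vessels and heart rise in every cross, *actc1* stays within 149390 to 182910, and in *wnt8a*, *tbx6*, *cdx4*, *myod1* and *hoxb1* cross 9 is highest at stage 34.

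In the list for the pronephros, the larval kidney, 8 of 32 genes rose and 10 fell, with a median of 0.018. *slc12a3*, the sodium chloride cotransporter of distal tubules, had 22.5, 11.3 and 8.04 at stage 26 and 384, 785 and 275 at stage 34 (log2 change 5.03 ± 0.33, edgeR adjusted p = 3.15e-12). *pdzk1*, a scaffold of proximal tubule transporters, had 41.7, 89.7 and 33.5 at stage 26 and 754, 1594 and 402 at stage 34, highest in cross 2 (log2 change 4.00 ± 0.23, edgeR adjusted p = 2.65e-13). The glucose transporter gene *slc5a2*, the kidney cadherin gene *cdh16* and the bicarbonate transporter gene *slc4a4* rose by 2.72, 2.50 and 1.70, and the podocyte gene *nphs1* by 1.09. The regulators *pax8*, *osr2* and *pax2* fell by 1.14, 0.99 and 0.81, while *lhx1* and *wt1* had changes of 0.22 and 0.19 and were not called. *pax8* had 617, 724 and 878 at stage 26 and 243, 283 and 508 at stage 34, and its fall was smallest in cross 9 (log2 change -1.14 ± 0.16, edgeR adjusted p = 3.88e-06). The transporter gene *slc5a9* fell too, by 1.15. *slc3a1*, an amino acid transporter subunit gene, changed by -0.98, and by -0.71 without cross 2 (edgeR adjusted p = 0.167). The list for pancreas and gut had 5 rising and 6 falling of 22 genes (median -0.26), with 3 falling without cross 2. *vil1*, villin of the absorptive brush border, had 34.2, 29.3 and 22.8 at stage 26 and 532, 1179 and 411 at stage 34 (log2 change 4.55 ± 0.33, edgeR adjusted p = 1.52e-11). *ptf1a*, a regulator of pancreas and of some neurons, rose by 1.16. *ctrl*, a chymotrypsin-like gene, rose by 2.26 but reached only 14.8 normalized counts. The fallers included *cdx1*, *cdx2* and the amylase gene *amy2b* (-1.06). *sox17a*, an endoderm regulator, changed by -0.84, and by -0.71 without cross 2 (edgeR adjusted p = 0.122). *pdx1*, *sst* and *insm1* were not called, with changes of -0.26, 0.0089 and -0.26.

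In the list for ciliated, secretory and ion-transporting epidermis 13 of 31 fell, 3 rose and 15 were not called, with a median of -0.54. *krt8* had 88219, 65267 and 98545 at stage 26 and 27750, 28898 and 47598 at stage 34, without overlap (log2 change -1.27 ± 0.13, edgeR adjusted p = 2.59e-08), and the keratin genes *krt18* and *krt19* fell by 0.97 and 0.64. Without cross 1 the change of *krt19* was -0.55, below the fold threshold. The ionocyte genes *foxi1*, *slc26a4* and *ca2* fell by 0.88, 0.96 and 0.97, and *slc18a2*, a monoamine transporter gene, by 1.13. The V-ATPase subunit genes *atp6v1b1* and *atp6v1a* of the same list had changes of -0.21 and 0.20 and were not called. The motile cilium genes *dnai1* and *tekt3* fell by 0.83 and 0.73, *foxj1*, the regulator of motile cilia, had a change of -0.039 and *dnah5* of -0.38, neither of them called. The secretory lectin gene *itln1* had 17384, 11337 and 13283 at stage 26 and 21478, 15490 and 9769.7 at stage 34, with overlapping stages (log2 change 0.13 ± 0.17, edgeR adjusted p = 0.666). *krt15* rose by 1.46, *otog* by 1.59 and *ddc*, a monoamine synthesis gene, by 0.92. The cement gland genes *ag1* and *agr2* fell by 1.58 and 1.54. *ag1* had 9561, 10096 and 15519 at stage 26 and 3923, 2022 and 6969 at stage 34 (log2 change -1.58 ± 0.20, edgeR adjusted p = 4.80e-07). *uvs.2*, a hatching enzyme gene, had 22.5, 21.7 and 22.8 at stage 26 and 0, 0 and 9.84 at stage 34. *pitx1*, a gland and pituitary regulator, changed by -0.60, and by -0.44 without cross 1 and -0.58 without cross 2, both below the fold threshold. In the same 8-gene list (4 falling, 2 rising, median -0.46) *ctsk* and *tcn2*, which are not specific to these glands, rose, *ctsk* by 2.03. In the inner ear list 2 of 18 (11.1%) rose and 3 (16.7%) fell, with a median of -0.067. Besides *otog*, which codes for a protein of the inner ear's gel membranes, the hair cell gene *otof* rose, by 0.98, and the fallers *gata3*, *pax2* and *pax8* are shared with the kidney list. Without cross 1 the risers numbered 4, and without cross 9 the fallers 5.

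In the cell cycle list 6 of 43 genes fell, none rose and 37 were not called, with a median of -0.30. The 6 were *cdt1*, *wee1*, *cdc20*, *ccne1*, *cdc6* and *mcm2*, with changes from -0.69 to -0.59. *cdt1*, a licensing factor of DNA replication, had 4878, 4244 and 5266 at stage 26 and 2928, 2526 and 3469 at stage 34 (log2 change -0.69 ± 0.13, edgeR adjusted p = 2.16e-04). Without cross 1 only 2 of the list fell, the changes then being -0.53 for *wee1*, -0.52 for *cdc20*, -0.56 for *ccne1* and -0.58 for *mcm2*. The change of *mcm2* without cross 9 was -0.56, and that of *cdc6* was -0.57 without cross 2 and -0.58 without cross 9, all below the fold threshold. *mki67*, a proliferation marker, had 22301, 23818 and 24465 at stage 26 and 16616, 16071 and 17440 at stage 34, without overlap but with a change below 1.5-fold (log2 change -0.50 ± 0.11, edgeR adjusted p = 0.00173). Connective tissue genes were divided, with 9 of 26 rising and 5 falling (median 0.28). *dcn*, a small proteoglycan gene, had 191, 161 and 72.4 at stage 26 and 651, 1397 and 496 at stage 34 (log2 change 2.45 ± 0.23, edgeR adjusted p = 3.32e-09), and the fibrillar collagen genes *col3a1*, *col1a2* and *col1a1* rose by 1.99, 0.95 and 0.94. *matn3*, a cartilage matrix gene, rose by 2.08, and *lum*, another proteoglycan gene, by 1.42. The fibronectin gene *fn1* changed by -0.61 (-0.53 without cross 1 and -0.52 without cross 2), and the collagen crosslinking gene *lox* by -0.60 (-0.37 without cross 1). The cartilage and notochord collagen gene *col2a1* had 28276, 25965 and 60242 at stage 26 and 11288, 22742 and 34551 at stage 34, with overlapping stages (log2 change -0.75 ± 0.21, edgeR adjusted p = 0.00809), and its change was -0.52 without cross 1, below the fold threshold. Without cross 1 only 1 of the list fell, and without the pairing by cross 2 fell. In the list for the pituitary and thyroid axis 4 of 16 rose and 2 fell (median 0.12), and 2 rose without cross 1, without cross 9 or at an adjusted p of at most 0.01. *slc5a5*, the iodide transporter gene, had 5.35, 4.72 and 8.04 at stage 26 and 246, 262 and 147 at stage 34 (log2 change 5.24 ± 0.36, edgeR adjusted p = 6.61e-12). *pomc*, the pituitary hormone precursor gene, was at 1.07, 0 and 0 at stage 26 and at 7.34, 43.8 and 1.41 at stage 34, and its rise rests on cross 2, without which the edgeR adjusted p was 0.318 (change 2.66). The call of *dio3* was lost without cross 1 (change 1.07, edgeR adjusted p = 0.118) and without cross 9 (0.65, edgeR adjusted p = 0.247). That of *trh* was lost without cross 1 (0.80, edgeR adjusted p = 0.263) and without cross 9 (1.07, edgeR adjusted p = 0.146). *avp* fell by 0.89, and the thyrotropin gene *tshb* was at 26.3 to 65.7 normalized counts and not called.

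Gene ontology terms of the deposited annotation, which overlap with the lists above, gave a broader view. Genes annotated to oxygen transport rose in 13 of 17 cases and fell in none (median 0.95). For visual perception 75 of 209 rose and 14 fell (0.35), for ion transport 21 of 77 and 8 (0.22), and for the tricarboxylic acid cycle 10 of 34 and none (0.41), whereas glycolysis had 5 rising and 8 falling of 35 (-0.081). Synaptic transmission had 64 rising and 18 falling of 316 (0.16). Proteolysis had 78 rising and 34 falling of 384 (0.12), and cell adhesion 48 and 25 of 281 (-0.061). Extracellular matrix organization had 30 and 14 of 130 (0.10) and immune response 30 and 11 of 165 (0.069). Among all genes 13.6% rose and 6.54% fell. The shares were 20.3% and 8.85% for proteolysis and 17.1% and 8.90% for cell adhesion. They were 23.1% and 10.8% for extracellular matrix organization and 18.2% and 6.67% for immune response. Blood coagulation had 62 and 28 of 333 (-0.0090), muscle contraction 19 and 16 of 111 (-0.13), lipid transport 9 and 2 of 37 (0.071) and microtubule-based movement 10 and 4 of 91 (-0.10). The falling immune response genes numbered 5 without cross 2, as did those of ion transport, and the falling coagulation genes 43 without cross 9. Rising glycolysis genes numbered 3 without cross 1, and 1 lipid transport gene fell without cross 1 or cross 2. At an adjusted p of at most 0.01 the falling synaptic transmission genes numbered 9. Somitogenesis had the opposite balance, with 6 of 94 rising and 26 falling (-0.31). Most genes of the basic cell machinery were not called. Of 121 translation genes 6 rose and 1 fell, of 78 rRNA processing genes none rose and 4 fell, of 167 mitosis genes 6 rose and 4 fell, and of 134 protein folding genes 5 rose and 4 fell, all below the shares among all genes. RNA splicing (4 rising and 3 falling of 80, median -0.20) and DNA replication (7 and 5 of 92, -0.15) were likewise mostly not called. Without cross 9 the mitosis and protein folding genes that fell numbered 12 and 11, and the mitosis genes 2 without cross 1. The falling splicing genes numbered 6 without cross 9 and 1 without cross 1 or cross 2, and the falling DNA replication genes 3 without cross 1. Rising translation genes numbered 10 without cross 9, with 3 falling there and 2 without cross 1, and 1 rRNA processing gene fell without cross 1. Among 663 genes annotated as sequence-specific transcription factors 65 rose and 77 fell (median -0.16), 9.80% and 11.6% beside 13.6% and 6.54% of all genes.

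The crosses did not move equally far. Over all genes past the filter, stage held 56.7% of the sum of squares of log2 levels among the 6 libraries, cross 26.6% and the cross-by-stage remainder 16.7%. Libraries of a cross differed between stages by a root mean square log2 difference of 0.931, 0.909 and 0.803 in crosses 1, 2 and 9, while different crosses at the same stage differed by 0.530 to 0.644. The distance between stages was thus larger than that between crosses at a stage in each cross. Cross 9 changed least, having the smallest of the 3 changes in 1182 of the 2441 rising and 777 of the 1177 falling genes, and the median change over the falling genes was -1.01, -0.97 and -0.63 in crosses 1, 2 and 9. To place the libraries on a scale that uses none of them, each was projected on the line from the mean of the 3 uninjected stage 26 libraries (0) to that of the 3 uninjected stage 34 libraries (1) of the KD experiment, over the 5953 genes that differed between the stages there. Wild-type libraries of crosses 1, 2 and 9 lay at 0.233, 0.319 and 0.189 at stage 26 and at 0.934, 1.06 and 0.746 at stage 34. Every wild-type stage 26 library thus lay higher on this axis than the uninjected stage 26 ones, which lay between -0.103 and 0.0571. Both ends of the axis and its genes came from the uninjected libraries, so positions of wild-type and uninjected embryos are not on an equal footing. With all genes past the filter in place of the 5953, the wild-type stage 26 libraries lay at 0.240, 0.323 and 0.196. The step between stages was 0.666 ± 0.0961 (SD, n = 3 crosses), and largest in cross 2. Among the siblings of the same crosses, cross 9 had the shortest step in het (0.547) and in KO embryos (0.645) as well. No test was made of these positions, as 3 crosses cannot give a p under 0.05 in an exact permutation test.

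**Figure D4:**
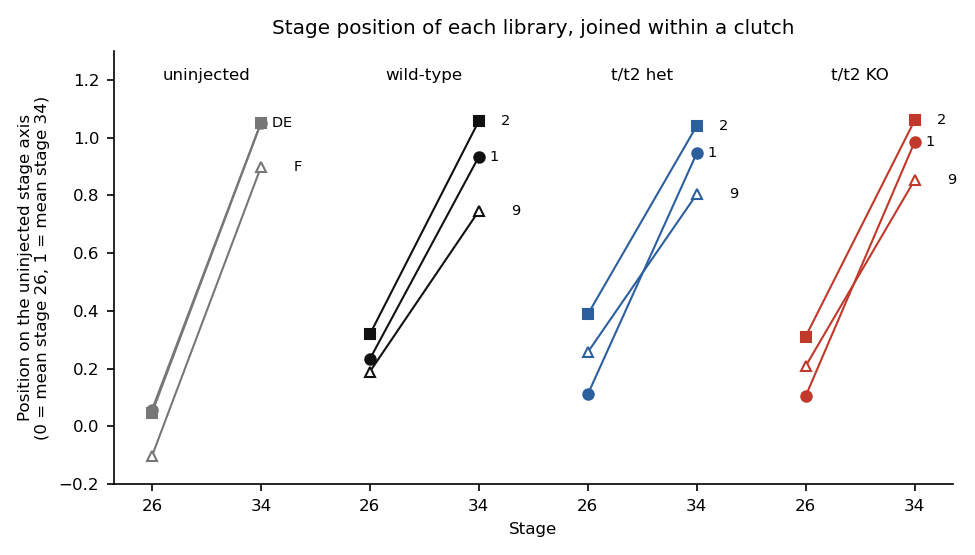
Position of each library between uninjected stage 26 (0) and stage 34 (1) embryos on an axis of 5953 genes, with lines joining the stages of a clutch and the clutch named beside its stage 34 point (uninjected clutches D, E and F, and crosses 1, 2 and 9 of each genotype). Wild-type libraries start at 0.189 to 0.319 and end at 0.746 to 1.06, cross 9 ends lowest in all 3 genotypes, and the uninjected steps average 1 by construction.

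In uninjected embryos 3702 genes rose and 2251 fell. Of the 2441 genes rising in wild-type embryos 2184 also rose there, which is 89.5% of the wild-type and 59.0% of the uninjected genes, and of the 1177 falling ones 1018 also fell (86.5% and 45.2%). In 4 genes the directions were opposite. Over the genes called in uninjected embryos, the median size of the log2 change was 1.07 in uninjected and 0.683 in wild-type embryos, but these genes were chosen by their change in uninjected embryos. Over the genes called in wild-type embryos it was 1.32 in uninjected and 0.994 in wild-type embryos, and over all genes past the filter 0.407 and 0.301. Tested gene by gene as the difference of the stage changes, 483 genes (2.69%) differed between the groups, and the change was smaller in wild-type embryos in 466 of them. The number was 12 without the pairing by clutch, 263 without cross 9 and 727 without cross 2. Of the 583 measured list genes 57 differed. The 5 globin genes *hbz*, *hbd*, *hba2*, *hbe1* and *hba3* rose by 3.25, 2.61, 2.65, 2.45 and 1.74 in uninjected embryos, against 1.67, 1.42, 1.40, 1.27 and 0.78 in wild-type siblings. Likewise *myh6* rose by 2.92 and 1.57 and *krt15* by 4.69 and 1.46, and *chrd*, *mespa* and *wnt8a* fell by 2.46, 3.13 and 4.90 in uninjected and by 1.30, 1.55 and 2.58 in wild-type embryos. The groups differ in parents, in experiment and in stage position, and these cannot be told apart.

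**Figure D5:**
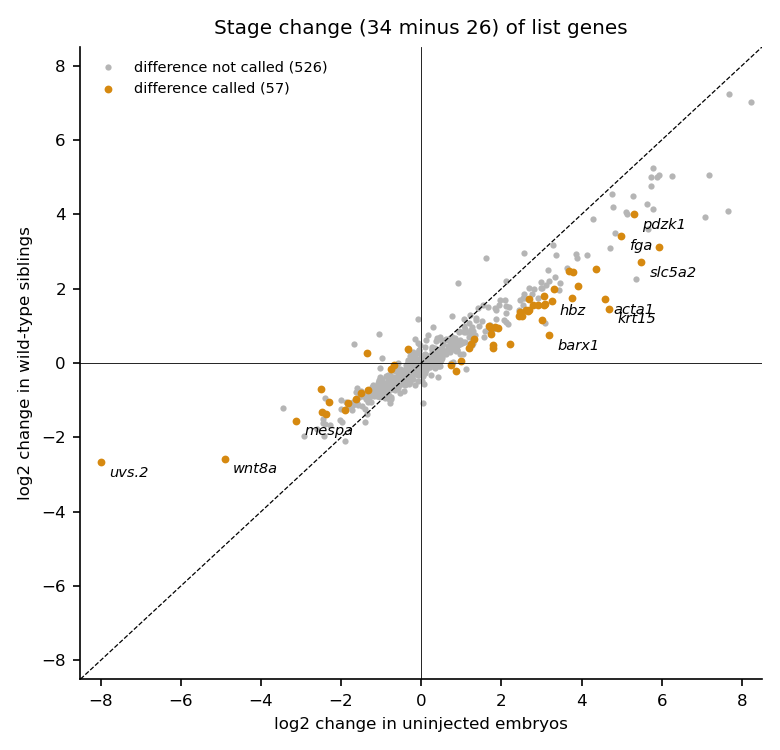
Log2 stage change of the 583 measured list genes in wild-type siblings (vertical) against uninjected embryos (horizontal), with the dashed line marking equal changes. The 57 orange genes had a called difference between the groups, and all but *c3*, *maf*, *myl3* and *nrl* lie between the dashed line and 0. Farthest among the falling genes are *uvs.2*, whose place depends on the prior count as stage 34 libraries were at 0, and *wnt8a*.

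Few genes had a stage change that differed between the genotypes of siblings. In *t*/*t2* het embryos, 0 genes (0%) had a stage change that differed from wild-type by edgeR's test, and 0 by DESeq2's. The unadjusted p of edgeR's test was under 0.05 for 335 of the 17987 genes past the filter, a share below 0.05. For *t*/*t2* KO embryos it was under 0.05 for 1416, a share above 0.05. Of all genes tested in *t*/*t2* KO embryos, 23 genes (0.128%) differed, 19 with a higher and 4 with a lower log2 change than in wild-type embryos. This count was 47 by DESeq2, 5 without the pairing by cross, and 10, 14 and 64 without crosses 1, 2 and 9. In wild-type siblings the vasopressin receptor gene *avpr1a* fell and the desmin gene *des.2* rose. *des.2* had 36.4, 32.1 and 38.9 normalized counts at stage 26 and 322, 693 and 183 at stage 34 in wild-type embryos, but 26.5 to 36.4 at stage 34 in *t*/*t2* KO siblings. *avpr1a* had 276, 342 and 332 at stage 26 and 56.6, 73.4 and 103 at stage 34 in wild-type, and never more than 35.3 in *t*/*t2* KO embryos.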

How the data were processed

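Poly(A) RNA of pooled whole embryos was sequenced as paired-end reads by the authors, who aligned them with Bowtie2 2.1.0 to revised *X. tropicalis* gene models and counted read pairs that aligned to 1 gene only. The deposited values are raw counts per gene, neither normalized nor pooled. Reads of near-identical paralogs are therefore missing or divided. The table held 25774 genes, 14462 with a symbol, and 3 entries naming no gene, which held the 27.3% to 30.7% unaligned pairs and ribosomal and mitochondrial RNA and were left out. Gene positions refer to assembly v7.1. Normalized counts are counts over the TMM-scaled library size, times the mean such size over 36 libraries.

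Stages were compared with edgeR 4.0.16 (R 4.3.3) by the quasi-likelihood test on the 18 libraries of the KO experiment, with 6 groups of genotype and stage and cross as a block, and with Benjamini-Hochberg adjustment over 24952 genes with a count. The filter required a mean normalized count above 7 over uninjected, cMO, wild-type and het libraries of both stages together. The standard error is the log2 change divided by the square root of its F statistic. Cross numbers in the labels mark siblings and so pair the libraries. Deviations from the group means correlated across genes between stages at 0.210, 0.293 and 0.201 in crosses 1, 2 and 9. Differences of stage changes were tested as interactions, with 36 libraries and 6 clutches as block against uninjected embryos. Stage positions used log2 of normalized count plus 0.5. Alternatives were a fit without the block, the 6 wild-type libraries alone, DESeq2 1.42.0, median-of-ratios size factors, other filters, a false discovery rate of 1% and leaving out each cross. The scripts were tested on simulated data.

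Genes named are the 12 largest log2 changes and the 5 largest count changes in each direction among called genes with a symbol, the 4 largest called changes and defining members of each of 25 tissue lists, the 5 largest of each interaction, and *t* and *t2*. Some of these are not reported here. A further 22 lists came from gene ontology terms. Members and lists were chosen with earlier results of these data known. P-values of the stage comparison weigh a change against the spread left after group and cross were fitted. That spread was taken over the 18 libraries of all genotypes of the KO experiment, which come from only 3 crosses. A stage change shared by the siblings of a cross was not fitted, and the test counts their libraries as independent. The p-values and standard errors therefore do not measure the spread of the stage change among 3 crosses alone.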

Additional observations from a re-analysis of the deposited data

Results flagged for a closer look

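The genes below differed between wild-type siblings and another group in their stage change by edgeR's test of the interaction. They are the 5 largest called differences against uninjected embryos and the 5 largest against *t*/*t2* KO siblings, given as differences of log2 changes.

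Against uninjected embryos, *uvs.2*, a hatching enzyme gene, differed by 5.42 (edgeR adjusted p = 0.0821). It was at 21.7 to 22.8 normalized counts at stage 26 and at 0, 0 and 9.84 at stage 34 in wild-type embryos, and fell from 55.2, 68.7 and 252 to 0.857, 0 and 0 in uninjected ones. *ventx3.2*, a homeobox gene, differed by 5.09 (edgeR adjusted p = 0.0483). Its wild-type counts were 20.3, 35.9 and 20.1 at stage 26 and at most 17.6 at stage 34, where cross 9 alone stood above 3. The unnamed gene Xetro.C01647 differed by 4.78 (edgeR adjusted p = 0.0152), and here too cross 9 stood apart at stage 34, with 192 normalized counts beside 23.1 in cross 1 and less in cross 2. For *fap* the difference was -5.14 (edgeR adjusted p = 0.0929), with 0 in all 3 uninjected stage 26 libraries and 2.83 to 6.42 in the wild-type ones. For Xetro.B01915 it was 5.23 (edgeR adjusted p = 0.0991), with 0 in all 3 wild-type stage 26 libraries and low counts at stage 34 (9.44 in cross 1 and 2.81 in cross 9). With libraries at 0, the fitted sizes of both depend on the prior count. Those of *uvs.2* and *ventx3.2*, with stage 34 libraries at 0 in both groups, depend on it too.

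Against *t*/*t2* KO siblings, given as KO minus wild-type, *avpr1a* differed by 4.03 (edgeR adjusted p = 2.12e-05), *c6orf192* by 2.79 (edgeR adjusted p = 2.32e-05), *sult2b1* by 2.64 (edgeR adjusted p = 0.00468), Xetro.F01522 by 2.97 (edgeR adjusted p = 0.0208) and *des.2* by -3.23 (edgeR adjusted p = 0.00278). *c6orf192* was at 446 to 918 normalized counts in wild-type embryos with no called change, and rose from 33.1 to 62.2 at stage 26 to 209 to 304 at stage 34 in KO embryos. *sult2b1* rose in both, by 1.52 in wild-type and 4.16 in KO embryos. Xetro.F01522 had 33.5 to 66.1 in wild-type embryos over both stages, against 1.01 to 4.28 and then 12.4 to 26.5 in KO embryos.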

How the results depend on the processing

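The counts of genes rising and falling between the stages stayed within 1.5 times under every alternative. They were 2154 and 984 without the replicate block, 2345 and 1079 with the 6 wild-type libraries alone, 2300 and 1127 with DESeq2, and 1946 to 2578 and 921 to 1714 with 1 cross left out. Without cross 9, 2144 of the 2441 rising genes still rose. Genes falling at least 4-fold numbered 33 to 117 with a cross left out, in place of 48. Genes whose stage change differed from uninjected embryos numbered 12 without the replicate block that pairs libraries by clutch, 50 at a false discovery rate of 1% and 263 to 727 with a cross left out. Against het siblings they numbered 0 to 1, and against KO siblings 5 without the block, 47 with DESeq2, 7 at 1% and 10 to 64 with a cross left out. Stage positions moved by less than the spread between crosses. Each of 276 genes was followed under each alternative, which makes 2760 pairs of gene and setting. In 119 of these pairs the call was lost and in 0 it reversed, and 211 genes had the same call in every setting. Dropping the count filter reuses the main fit and cannot lose a call. Of 940 pairs of list count and setting, 885 stayed within 1.5 times. The cause of these shifts was not tested. With 3 crosses per stage, and genes below 7 normalized counts not called, small changes and rare transcripts are beyond these data.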
